A study of Mus musculus with 6 samples.

Results

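The genes described here are 10 members of the ADP-ribosylation machinery: Parp1, Parp2, Parp8, Parp9, Parp10, Parp11, Parp12, Parp14, the PARP9 partner Dtx3l, and Zc3hav1, which encodes the zinc finger antiviral protein (ZAP, also called PARP13). They were chosen by gene symbol, with earlier results of these data known. Their shares, set beside those of all tested genes, are therefore a description and not a test. All 10 were found among the 55357 genes of the expression table, each under 1 mouse Ensembl identifier, and all 10 passed the filter on low values that left 15280 genes for testing. The RNA came from cultured cortical astrocytes of C57BL/6 mouse embryos at embryonic day 18. In the KE group, 3 cultures labelled with the genotype K499E had been transfected with a plasmid in which the CMV promoter drives FLAG-tagged BRAF KE. This promoter is not restricted to 1 cell type. In the NT group, 3 cultures labelled naive were nontransfected. Both groups were collected at 48 hours, and neither carried another allele or agent according to the labels. Cultures that received an empty plasmid or BRAF WT were not analysed here, so the effect of BRAF KE and that of plasmid delivery cannot be told apart.

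PARP enzymes take ADP-ribose from NAD+ and attach it to proteins or nucleic acids. PARP1 and PARP2 build chains of it at DNA breaks, whereas most of the other members studied here attach single units or, like ZAP, have lost the enzymatic activity. Several of them, among them Parp9, Parp10, Parp12, Parp14, Dtx3l and Zc3hav1, are known as interferon-stimulated genes with roles in the response to viruses. Parp1 and Parp2 are known chiefly as DNA repair genes.

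Most of these genes were more abundant in BRAF KE–transfected than in nontransfected astrocytes. Parp9, Parp10, Parp11, Parp12, Parp14, Dtx3l, Zc3hav1 and Parp8 were upregulated (8 of 10), where 25.3% of all tested genes were. Parp1 and Parp2 were downregulated (2 of 10), where 26% of all tested genes were. A gene was called a DEG at an adjusted p below 0.05 (limma, Benjamini-Hochberg adjustment across the 15280 tested genes), and 51.3% of tested genes met this in either direction. The ranges of the groups were separate in 10 of 10 members and in 59.9% of all tested genes. The median log2FC was 1.30 over the members and 0.00 over all tested genes, and 10.01% of tested genes had a log2FC at or above that of Parp8, the lowest of the 8 upregulated members. The genes were grouped under the name interferon-inducible, and Parp1 and Parp2 were lower in KE. No interferon was given according to the labels, so the direction of a member does not test that name. Values are normalized counts, and log2FC is the difference between KE and NT in log2(normalized count + 1). Since these are bulk cultures, fewer cells of a type and less RNA per cell cannot be told apart. The labels do not say that the cultures came from separate dissections, so the p-values measure the spread between these cultures, which may be technical.

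**Figure D1:**
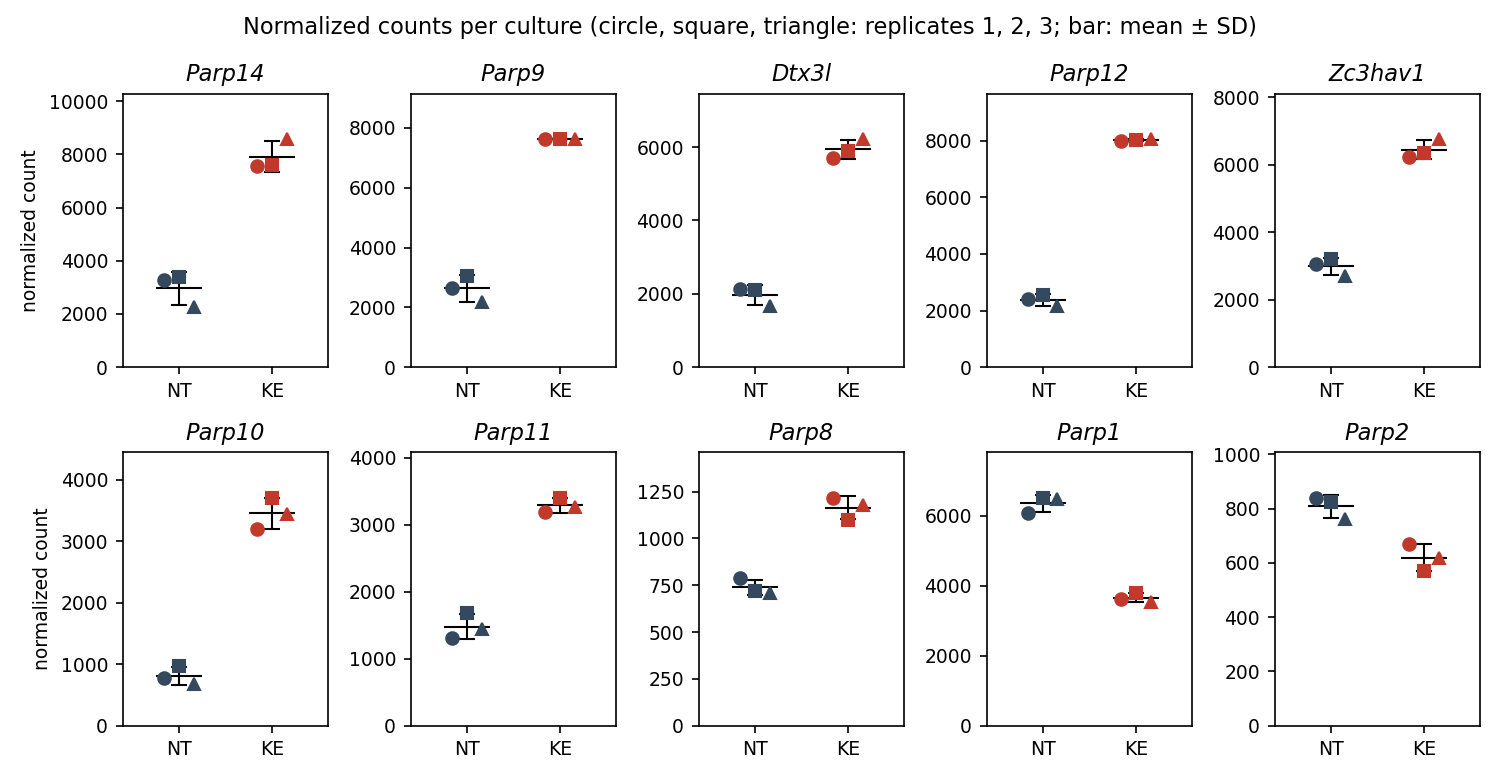
Normalized counts of the 10 members on linear axes from 0, scaled per gene, with 1 point per culture and a bar at the mean ± SD of each group (n = 3). The KE points lie above the NT points in 8 members and below them in Parp1 and Parp2, with no overlap in any of the 10.

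The first group comprised the macrodomain PARPs and DTX3L. Parp9 (ENSMUSG00000022906, GRCm39 chr16:35758840-35792980, plus strand) encodes a protein with macrodomains, which bind ADP-ribose, and works as a complex with DTX3L. In KE replicates 1, 2 and 3 it had 7626, 7624 and 7623 normalized counts, compared with 2652, 3063 and 2183 in NT replicates 1, 2 and 3. The KE cultures were nearly identical, with a coefficient of variation of 0.0175%, and each was higher than any NT culture. The KE mean was 7625 ± 1.33 and the NT mean 2633 ± 440.3 (SD, n = 3), with a log2FC of 1.55 (SE 0.10, 95% confidence interval 1.33 to 1.77, adjusted p = 3.5e-07).

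Dtx3l (ENSMUSG00000049502, chr16:35746881-35759521, minus strand) encodes a ubiquitin E3 ligase of the Deltex family. The KE replicates read 5709, 5898 and 6217 normalized counts, the NT replicates 2118, 2114 and 1654. NT replicate 3 was the lowest, and the groups did not overlap. Mean ± SD came to 5941 ± 256.5 in KE and 1962 ± 266.7 in NT (n = 3 each), with a log2FC of 1.61 (SE 0.09, 95% confidence interval 1.41 to 1.81, adjusted p = 1.4e-07). Parp9 and Dtx3l lie head to head on opposite strands and their annotated genes overlap by 682 bases at the 5′ ends, of which 458 are exonic in both. The library kit keeps the strand, but the strand setting of the counting is not given in the sources used here, so reads from this overlap may have been shared between them.

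Parp14 (ENSMUSG00000034422, chr16:35653231-35692003, minus strand) encodes the largest of the macrodomain PARPs, a mono-ADP-ribosyltransferase that was first described as a cofactor of STAT6. Normalized counts reached 7550, 7595 and 8574 with BRAF KE, against 3260, 3377 and 2263 without transfection. KE replicate 3 was the highest and NT replicate 3 the lowest, again with no overlap. The KE mean was 7906 ± 578.8 and the NT mean 2966 ± 612.3 (SD, n = 3), with a log2FC of 1.43 (SE 0.13, 95% confidence interval 1.15 to 1.72, adjusted p = 4.4e-06). Without NT replicate 3 the log2FC was 1.25 (adjusted p = 1.9e-07 from limma).

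Whether these neighbours moved in proportion was examined in 2 ratios per culture. The log2 ratio of Dtx3l to Parp9 was -0.42, -0.37 and -0.29 in KE replicates, compared with -0.32, -0.54 and -0.40 in NT replicates, so the groups overlapped. The difference was 0.06 (p = 0.5, exact two-sided permutation test). The log2 ratio of Parp9 to Parp14 was 0.01, 0.01 and -0.17 in KE replicates, compared with -0.30, -0.14 and -0.05 in NT replicates, which also overlapped. The difference was 0.11 (p = 0.3, exact two-sided permutation test). With 3 cultures against 3, this exact permutation test cannot go below p = 0.1, so a p above the threshold does not show that the ratios were equal.

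The second group comprised the PARPs with CCCH zinc fingers, which bind RNA. Parp12 (ENSMUSG00000038507, chr6:39063342-39095573, minus strand) encodes a mono-ADP-ribosyltransferase with antiviral activity. By replicate, KE gave 7987, 8008 and 8053 normalized counts where NT gave 2390, 2562 and 2143. The spread within either group was small next to the gap between them. Mean ± SD came to 8016 ± 33.7 in KE and 2365 ± 210.3 in NT (n = 3 each), with a log2FC of 1.76 (SE 0.07, 95% confidence interval 1.62 to 1.91, adjusted p = 1.3e-08). The lncRNA 4930599N23Rik overlaps the start of Parp12 by 267 exonic bases on the opposite strand. It had means of 26.95 in KE and 5.70 in NT, levels that are a small part of those of Parp12. Its NT mean was under 10, so it passed the filter only through its KE values.

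Zc3hav1 (ENSMUSG00000029826, chr6:38282221-38332504, minus strand) encodes ZAP, which binds CpG-rich RNA and promotes its decay. In order of replicate, the KE values were 6225, 6338 and 6753 normalized counts and the NT values 3068, 3195 and 2696. NT replicate 3 was again the lowest. The KE mean was 6439 ± 278.4 and the NT mean 2986 ± 259.0 (SD, n = 3), with a log2FC of 1.11 (SE 0.07, 95% confidence interval 0.96 to 1.27, adjusted p = 3.2e-07). Zc3hav1 and Parp12 are 730.837 kb apart on chromosome 6, and Parp12 is 484.296 kb from Braf. Braf itself, the gene carried by the plasmid, stood at 35025, 34933 and 40978 normalized counts with the plasmid and at 925, 811 and 946 without it. Braf RNA was thus higher in all 3 KE cultures, and the table does not separate plasmid from chromosomal transcripts.

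The third group comprised other mono-ADP-ribosyltransferases. Parp10 (ENSMUSG00000063268, chr15:76115374-76127648, minus strand) encodes an enzyme that attaches single ADP-ribose units to proteins. The KE replicates read 3205, 3712 and 3453 normalized counts, the NT replicates 781, 967 and 673. Each KE culture was more than 3 times any NT culture. Mean ± SD came to 3457 ± 253.6 in KE and 807.1 ± 148.8 in NT (n = 3 each), with a log2FC of 2.11 (SE 0.11, 95% confidence interval 1.86 to 2.36, adjusted p = 1.1e-07), the largest log2FC among the 10 members. Parp10 shares 205 exonic bases with Plec on the same strand, where reads cannot be assigned by strand.

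Parp11 (ENSMUSG00000037997, chr6:127423483-127491198, plus strand) stood at 3194, 3407 and 3273 normalized counts in KE replicates, compared with 1312, 1680 and 1442 in NT replicates. Among the upregulated members it differed in that NT replicate 1, not NT replicate 3, was the lowest. The KE mean was 3291 ± 107.6 and the NT mean 1478 ± 186.6 (SD, n = 3), with a log2FC of 1.16 (SE 0.08, 95% confidence interval 0.98 to 1.35, adjusted p = 9.3e-07).

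Parp8 (ENSMUSG00000021725, chr13:116987380-117162073, minus strand) encodes one of the less studied enzymes of the family. Normalized counts reached 1218, 1097 and 1176 with BRAF KE, against 786, 721 and 708 without transfection, with no overlap. Mean ± SD came to 1164 ± 61.6 in KE and 738.6 ± 41.9 in NT (n = 3 each), with a log2FC of 0.66 (SE 0.08, 95% confidence interval 0.49 to 0.82, adjusted p = 3.4e-05). The upper bound of this interval lies below the lower bounds of the other upregulated members, the nearest being 0.96 for Zc3hav1. The difference between the genes was not tested.

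The fourth group comprised the DNA break sensors, which moved the other way. Parp1 (ENSMUSG00000026496, chr1:180396443-180431307, plus strand) encodes the main nuclear poly-ADP-ribose polymerase. By replicate, KE gave 3624, 3805 and 3542 normalized counts where NT gave 6084, 6518 and 6473. Replicates lay close together in both groups. The KE mean was 3657 ± 134.3 and the NT mean 6358 ± 238.8 (SD, n = 3), with a log2FC of -0.80 (SE 0.06, 95% confidence interval -0.92 to -0.67, adjusted p = 7.1e-07).

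Parp2 (ENSMUSG00000036023, chr14:51044948-51058759, plus strand) encodes a related enzyme that shares part of the work of PARP1. In order of replicate, the KE values were 671, 570 and 618 normalized counts and the NT values 841, 825 and 762. The gap between the highest KE culture and the lowest NT culture was narrow. Mean ± SD came to 619.4 ± 50.6 in KE and 809.1 ± 41.9 in NT (n = 3 each), with a log2FC of -0.39 (SE 0.09, 95% confidence interval -0.58 to -0.20, adjusted p = 0.0031). At its start, Parp2 shares 277 exonic bases with Rpph1, the RNA component of RNase P, and 307 with Ccnb1ip1, both on the opposite strand. How far these overlaps enter the values of Parp2 was not tested.

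**Figure D2:**
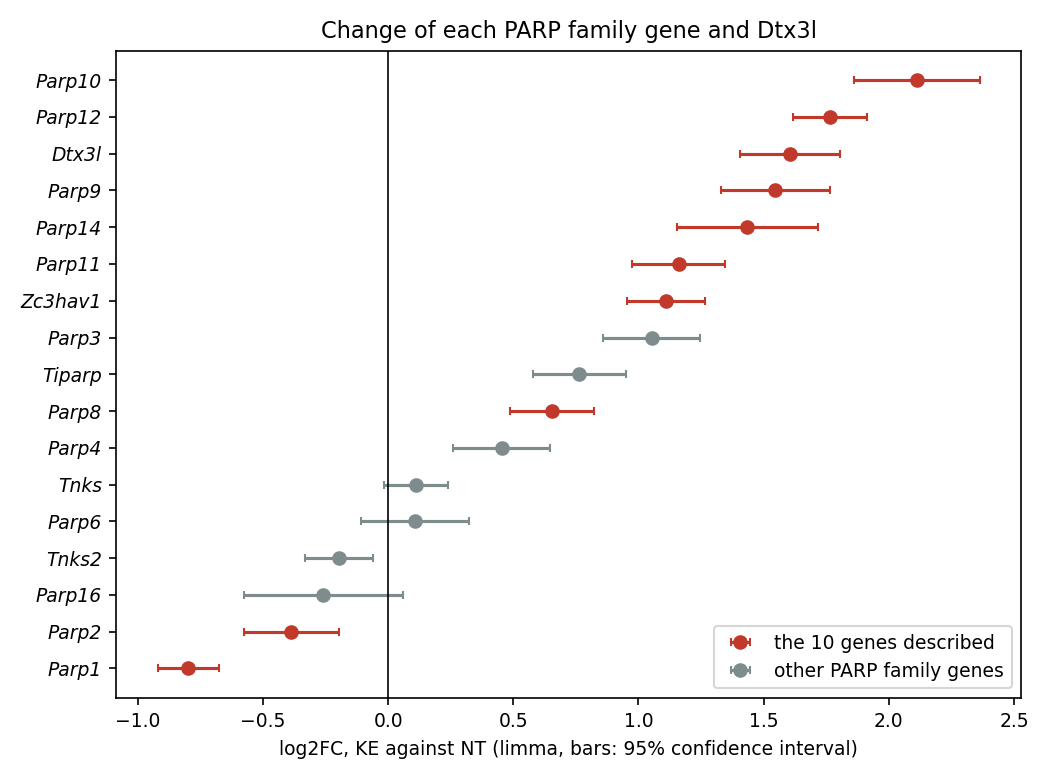
Log2FC (KE against NT) with its 95% confidence interval from limma for the 10 members and the 7 other PARP family genes, n = 3 cultures per group. The members run from -0.80 (Parp1) to 2.11 (Parp10), and the other family genes from -0.26 (Parp16) to 1.05 (Parp3).

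Of 7 other PARP family genes, 3 were upregulated, 1 was downregulated and 3 did not pass the test, with a median log2FC of 0.11. Over all tested genes, 25.3% were upregulated and 26% downregulated, and the counts in this and the following lists stand beside these shares. Parp3, a DNA break repair enzyme, had means of 4257 ± 140.6 in KE and 2064 ± 273.8 in NT (SD, n = 3; log2FC 1.05, adjusted p = 2.8e-06 from limma). Tiparp, a target gene of the aryl hydrocarbon receptor, had a log2FC of 0.76 (adjusted p = 2.4e-05), and Parp4, a component of vault particles, one of 0.45 (adjusted p = 0.0013). The tankyrase genes Tnks2 and Tnks were the most abundant of these 7 by normalized count. Tnks2 had a log2FC of -0.20 (adjusted p = 0.020), and this call was lost without KE replicate 1 (adjusted p = 0.055), KE replicate 2 (adjusted p = 0.067), NT replicate 1 (adjusted p = 0.056) or NT replicate 3 (adjusted p = 0.082), and in limma without the variance trend (adjusted p = 0.067). Tnks had a log2FC of 0.11 (adjusted p = 0.14), Parp6 one of 0.11 (adjusted p = 0.39) and Parp16 one of -0.26 (adjusted p = 0.16). Across all 16 PARP family genes, Dtx3l not counted, 10 were upregulated, 3 downregulated and 3 did not pass the test.

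Of 9 genes that act with PARP1 and PARP2 in DNA break repair, 4 were downregulated, 2 were upregulated and 3 did not pass the test, where 51.3% of all tested genes were called in either direction. Their median log2FC was -0.19. Lig3, the DNA ligase of single-strand break repair, had a log2FC of -0.23 (adjusted p = 0.011). Hpf1, which directs PARP1 and PARP2 to serine residues, had means of 995.6 ± 60.2 in KE and 1385 ± 63.1 in NT (SD, n = 3; log2FC -0.48, adjusted p = 0.00024 from limma). Xrcc1, the scaffold recruited by poly-ADP-ribose, had a log2FC of -0.44 (adjusted p = 0.00043), and Tdp1, which removes topoisomerase adducts, one of -0.55 (adjusted p = 0.00023). Polb, the gap-filling DNA polymerase, and Aptx, which repairs failed ligation ends, were upregulated, with log2FC of 0.46 (adjusted p = 0.0019) and 0.36 (adjusted p = 0.0021).

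Of 7 enzymes that remove ADP-ribose, 2 were upregulated, 2 downregulated and 3 not past the test, shares near those of all tested genes (25.3% and 26%). Parg, the main enzyme that degrades the chains, had means of 956.8 ± 132.4 in KE and 1366 ± 37.6 in NT (SD, n = 3; log2FC -0.52, adjusted p = 0.00075 from limma). The most abundant of these genes, Adprh, had a log2FC of 0.01 (adjusted p = 0.93). Macrod2 was downregulated at a lower level (log2FC -0.61, adjusted p = 0.0045). Macrod1 (log2FC 0.37, adjusted p = 0.017) and Nudt16 (log2FC 0.42, adjusted p = 0.015) were upregulated. The call of Macrod1 was lost without KE replicate 2 (adjusted p = 0.063) or NT replicate 1 (adjusted p = 0.066), and that of Nudt16 without KE replicate 1 (adjusted p = 0.064).

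Of 4 genes listed with ZAP, the 3 that encode its cofactors were upregulated and the 1 that encodes a paralog was downregulated. Trim25, the E3 ligase that ZAP needs for its antiviral action, had means of 6688 ± 317.2 in KE and 3051 ± 220.4 in NT (SD, n = 3; log2FC 1.13, adjusted p = 1.9e-07 from limma), a log2FC close to the 1.11 of Zc3hav1. N4bp1 and Khnyn, related RNA-cleaving proteins, had log2FC of 0.33 (adjusted p = 0.0017) and 0.23 (adjusted p = 0.020). The call of Khnyn was lost without KE replicate 2 (adjusted p = 0.054) or NT replicate 1 (adjusted p = 0.061). The paralog, Zc3hav1l, had a log2FC of -0.99 (adjusted p = 0.00029).

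Of 4 other Deltex genes, 2 were upregulated and 2 did not pass the test, with a median log2FC of 0.36 against 1.61 for Dtx3l. Dtx1, a regulator of Notch signaling, had a log2FC of 0.69 (adjusted p = 6.4e-05), and Dtx3 one of 0.64 (adjusted p = 6.4e-05). Dtx4, the most abundant of the 4, had a log2FC of 0.09 (adjusted p = 0.20), and Dtx2 one of -0.20 (adjusted p = 0.14).

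Genes of NAD synthesis supply the substrate of PARPs. Of the 9 listed, 8 passed the filter, 4 of these were upregulated and none was downregulated in the main limma test, with a median log2FC of 0.35. Nampt, the rate-limiting enzyme of the salvage route, had means of 5997 ± 372.5 in KE and 2989 ± 326.6 in NT (SD, n = 3; log2FC 1.01, adjusted p = 1.9e-06). Nmnat2 had a log2FC of 0.53 (adjusted p = 0.00023), Nmnat3 one of 0.79 (adjusted p = 0.0033) and Naprt one of 0.36 (adjusted p = 0.011). Nadk, which makes NADP from NAD, had a log2FC of -0.13 (adjusted p = 0.061). It was the 1 gene of the list that was lower at an unadjusted p under 0.05 from limma. Under quantile normalization 7 of these genes were upregulated, the added ones being Nmnat1, Nmrk1 and Nadsyn1.

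Stat2 and Irf9 encode subunits of ISGF3, the transcription factor that carries the type I interferon signal to interferon-stimulated genes, and both were upregulated. Stat2 had means of 7343 ± 402.4 in KE and 2295 ± 174.8 in NT (SD, n = 3; log2FC 1.68, adjusted p = 2.0e-08 from limma). Irf9 had means of 4021 ± 137.4 in KE and 2199 ± 184.3 in NT (SD, n = 3; log2FC 0.87, adjusted p = 1.9e-06 from limma). The log2FC of the 8 upregulated members ranged from 0.66 to 2.11.

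Levels of different members were compared per kb of the canonical transcript in Gencode vM39, since a longer transcript yields more reads. In NT cultures Parp1 stood first, with 1635 ± 61.4 normalized counts per kb (SD, n = 3). Parp9 (741.0 ± 123.9) and Parp12 (671.2 ± 59.7) followed, and their culture values overlapped. Zc3hav1 was next at 536.4 normalized counts per kb. Parp14, Parp11, Dtx3l and Parp2 lay between 394.5 and 360.6, and each overlapped its neighbour in this order. Parp10 (238.7) and Parp8 (105.0) were the lowest.

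In KE cultures Parp12 stood first, with 2275 ± 9.57 normalized counts per kb, followed by Parp9 at 2146 ± 0.37 (SD, n = 3). These levels did not overlap. Zc3hav1, Dtx3l, Parp14, Parp10 and Parp1 formed a chain from 1157 to 940.4 normalized counts per kb in which each overlapped its neighbour. Parp1 had thus gone from the first to the seventh place of the 10, and Parp10 from the ninth to the sixth. Parp11 (853.1), Parp2 (276.0) and Parp8 (165.4) closed the order. With the length of all annotated exons in place of the canonical transcript, Parp12 stayed first in KE and Parp1 first in NT, while other places shifted.

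**Figure D3:**
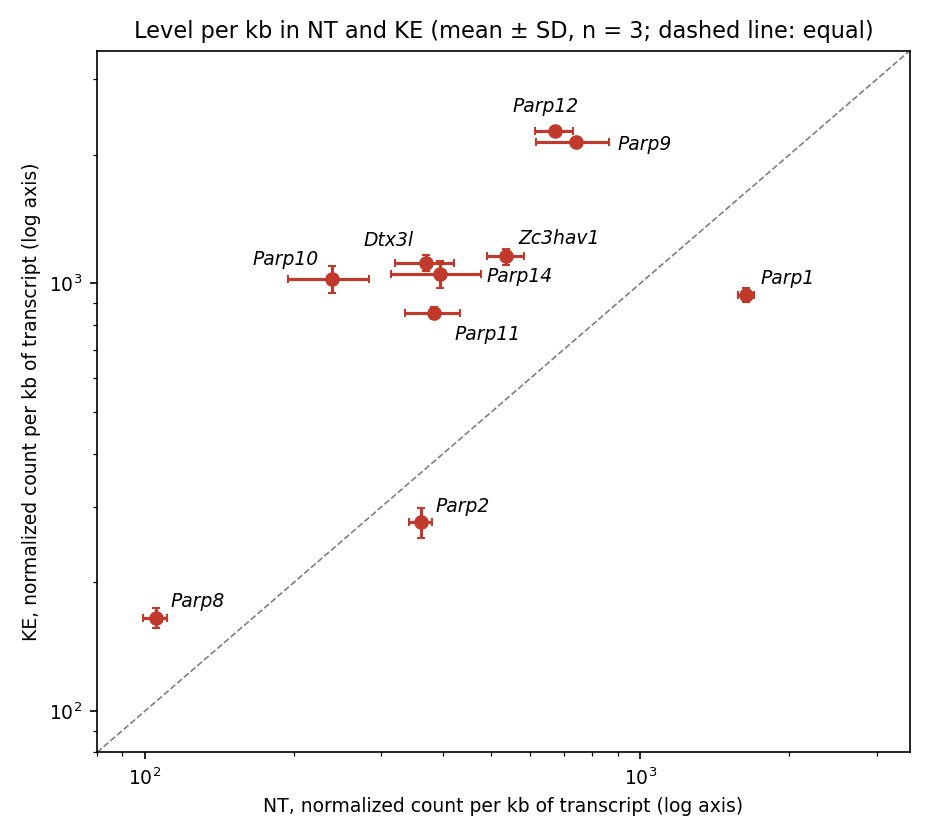
Mean normalized count per kb of canonical transcript in NT (horizontal axis) and KE (vertical axis), both on log axes, with SD over 3 cultures as error bars. Parp1 and Parp2 lie below the dashed line of equal levels and the other 8 members above it.

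Most of the upregulated members were lowest in the same NT culture. NT replicate 3 was the lowest NT culture in 7 of the 8, where 32% of all tested genes were lowest in it. The median log2 deviation of these 8 members from their NT mean was -0.19 in NT replicate 3, 0.16 in NT replicate 2 and 0.03 in NT replicate 1. Over all tested genes the median deviation in NT replicate 3 was 0.00. The largest single deviation was that of Parp14 in NT replicate 3, -0.37, followed by Parp10 in NT replicate 2, 0.28. In KE cultures the medians lay between -0.05 and 0.01, although KE replicate 1 was the lowest in 6 of the 8, where 31.9% of all tested genes were lowest in it. Stat2 (2345, 2439 and 2100 normalized counts in NT replicates 1, 2 and 3) and Irf9 (2302, 2308 and 1986) were also lowest in NT replicate 3 among NT cultures. The same held for 9 of 10 microglia and macrophage markers, whose sums were 31717, 31570 and 28196 in these cultures, and for 1 of 9 astrocyte markers. The part of these cells in the deviation was not tested. Among the downregulated members, Parp2 was also lowest in NT replicate 3, with a deviation of -0.09, and Parp1 was not. The deviations of Parp8 (0.09, -0.03 and -0.06 in NT replicates 1, 2 and 3) were of the size of those of Parp2. The coefficient of variation over NT cultures ran from 5.67% (Parp8) to 20.6% (Parp14) in the 8 upregulated members and was 3.76% for Parp1 and 5.18% for Parp2. Since the 8 members share the same 3 cultures, their common deviation is a single observation per culture.

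**Figure D4:**
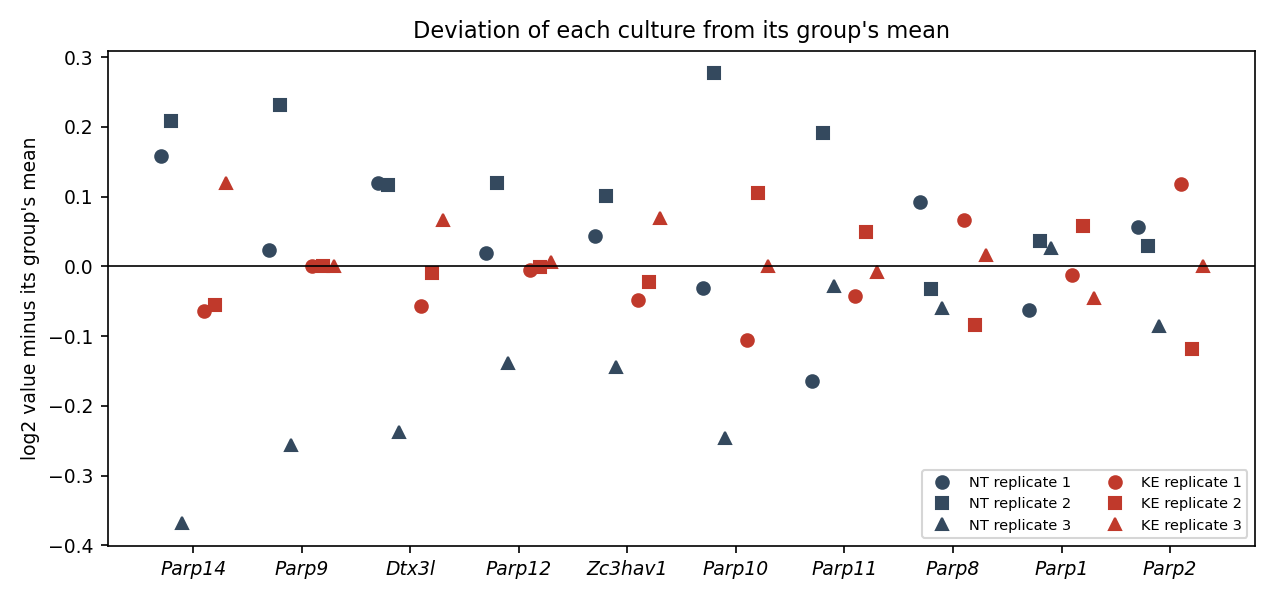
Deviation of each member from its group mean, on the log2 scale, for the 6 cultures. NT replicate 3 lies below 0 in all 8 upregulated members and NT replicate 2 above 0 in 7 of them.

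Parp14, Dtx3l and Parp9 are neighbours on chromosome 16, with 54.877 kb between Parp14 and Dtx3l. All other tested genes whose start lies within 500 kb of the Parp9 start were examined, a window chosen after values were seen. Of these 9 genes, 1 was upregulated, 3 were downregulated and 5 did not pass the test, with log2FC from -0.71 to 0.42 and a median of -0.18. The nearest, the importin gene Kpna1, starts 40.28 kb away and had means of 3134 in KE and 3354 in NT (log2FC -0.10, adjusted p = 0.18 from limma). The 1 upregulated neighbour was Slc49a4 (log2FC 0.42), and the downregulated ones were Sema5b (-0.71), Pdia5 (-0.45) and Ccdc58 (-0.35). The log2FC of Parp9, Dtx3l and Parp14, from 1.43 to 1.61, lay above all 9. The same window around the Parp12 start was also examined. It held 13 other tested genes, of which 5 were upregulated, 3 downregulated and 5 did not pass the test. Their log2FC ran from -4.03 (Tbxas1) to 2.16 (4930599N23Rik). Of the 5 upregulated, Klrg2, Gm49041 and 4930599N23Rik had an NT mean under 10 and passed the filter only through their KE values. These were therefore not compared with Parp12. The other upregulated genes were Rab19 (1.30) and Mkrn1 (0.56), both below the 1.76 of Parp12.

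**Figure D5:**
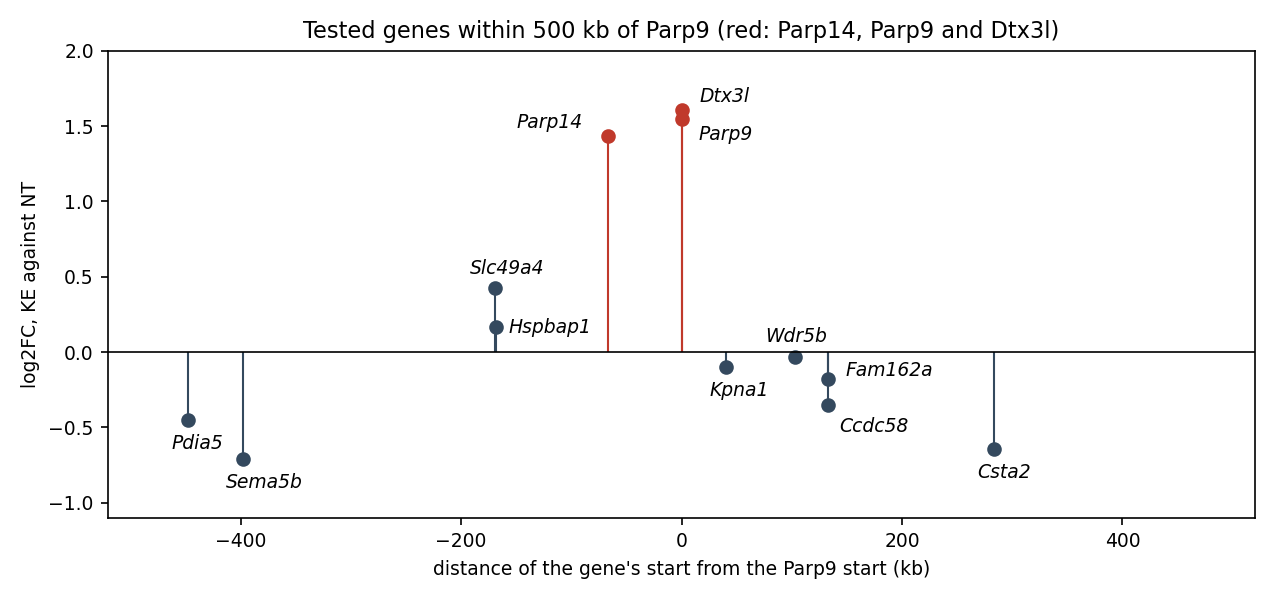
Log2FC of the tested genes by distance of their start from the Parp9 start, in kb, on chromosome 16 (KE against NT, n = 3 per group). The 3 members lie between 1.43 and 1.61, and the other 9 genes between -0.71 and 0.42.

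Promoter windows of 300 bases, from 250 before to 50 after an annotated start, were available from RefSeq on GRCm38.p6 for 7 of the 10 members, in 8 windows. Parp9, Parp10 and Parp14 had no entry. Each window was searched on both strands for the core of the interferon-stimulated response element (GAAA, any 2 bases, GAAA), the DNA element bound by ISGF3, and for the core of the gamma-activated sequence (TTCNNNGAA). The first was found in 1 of 8 member windows (12.5%) and in 3.44% of all 32851 windows. The second was also found in 1 of 8 and in 8.3% of all windows. Both were in the upstream one of the Parp11 windows, where the first core was on the minus strand and began 44 bases before the start, and the second began 37 bases before the start, so that they overlapped by 3 bases. Below, the 4 windows are given 5′ to 3′ on the strand of the gene, the first because it held both cores and the others as an upregulated partner of PARP9, the upregulated member with the highest level per kb in KE, and a downregulated member. Capitals mark the run covered by the matches, and windows without capitals held neither core. The windows are chr6:127446590-127446889 (plus strand) for Parp11, chr16:35938978-35939277 (minus strand) for Dtx3l, chr6:39118300-39118599 (minus strand) for Parp12 and chr1:180568641-180568940 (plus strand) for Parp1.
Parp11: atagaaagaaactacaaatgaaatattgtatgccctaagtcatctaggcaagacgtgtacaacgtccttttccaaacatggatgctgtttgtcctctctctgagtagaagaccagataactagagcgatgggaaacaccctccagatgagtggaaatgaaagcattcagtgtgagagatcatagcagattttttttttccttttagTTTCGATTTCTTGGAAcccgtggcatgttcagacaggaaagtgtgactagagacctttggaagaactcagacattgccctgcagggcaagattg
Dtx3l: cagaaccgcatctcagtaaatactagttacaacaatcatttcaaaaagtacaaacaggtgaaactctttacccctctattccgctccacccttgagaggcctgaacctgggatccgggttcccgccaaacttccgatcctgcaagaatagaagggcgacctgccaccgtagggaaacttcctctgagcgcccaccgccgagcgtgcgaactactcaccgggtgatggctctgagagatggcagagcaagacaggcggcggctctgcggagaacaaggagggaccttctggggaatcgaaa
Parp12: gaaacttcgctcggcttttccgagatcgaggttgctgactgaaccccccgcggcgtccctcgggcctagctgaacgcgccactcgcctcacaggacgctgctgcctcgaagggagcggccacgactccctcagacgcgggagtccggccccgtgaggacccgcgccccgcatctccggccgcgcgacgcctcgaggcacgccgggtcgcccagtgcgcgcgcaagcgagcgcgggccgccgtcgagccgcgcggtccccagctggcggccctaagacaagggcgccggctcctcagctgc
Parp1: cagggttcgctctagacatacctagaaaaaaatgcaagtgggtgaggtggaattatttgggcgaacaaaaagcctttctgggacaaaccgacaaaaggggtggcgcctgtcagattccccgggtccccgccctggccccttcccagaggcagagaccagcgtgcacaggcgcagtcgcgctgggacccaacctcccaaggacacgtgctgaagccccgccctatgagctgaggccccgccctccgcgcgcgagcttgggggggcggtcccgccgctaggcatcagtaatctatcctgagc
A match is a match of letters and not a site of binding. The windows of Dtx3l and Parp12 held neither core within these 300 bases, which says nothing of sequence outside them.

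Genes whose profile over the 6 cultures was most like that of Parp9 and of Parp14 were sought among 15279 other tested genes. The measure was the Euclidean distance between log2 profiles, each taken relative to its NT mean. This distance rests mostly on the log2FC, so a near place chiefly marks a change of like size. It does not show that genes vary together between cultures. Nearest to Parp9 were Trim12a, a mouse relative of the antiviral TRIM5 gene (distance 0.14), Atf3, a stress-induced transcription factor (0.15), and Oas3, a sensor of double-stranded RNA (0.16). These 3 genes had log2FC of 1.59, 1.55 and 1.55, against 1.55 for Parp9. Dtx3l came at place 6 (0.20) and Parp14 at place 26 (0.30). Nearest to Parp14 were A930015D03Rik (0.14), Osbp2 (0.19) and Tent5a (0.21), with Parp9 at place 8 (0.30) and Dtx3l at place 18 (0.35). A930015D03Rik had means of 36.9 in KE and 13.6 in NT, so its profile was measured on low values.

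Markers of the labelled cell type were present in every culture. Summed normalized counts of 9 astrocyte markers ranged from 149077 to 151319 in KE and from 107987 to 113021 in NT, with 6 upregulated, 1 downregulated (Gja1) and 2 not past the test. Markers of other cell types moved with the groups as well. All 10 microglia and macrophage markers were downregulated, their sums ranged from 3746 to 4953 in KE and from 28196 to 31717 in NT, and none was at 0 in all cultures. All 7 oligodendrocyte lineage markers were downregulated, with sums from 27105 to 31874 in KE and from 35920 to 36217 in NT. Of 5 neuronal markers, 4 passed the filter, with 1 upregulated and 1 downregulated and sums from 5732 to 5948 in KE and 7358 to 7969 in NT. Of 5 vascular and fibroblast markers, 4 passed the filter, with 2 downregulated and sums from 1204 to 1220 in KE and 1734 to 2748 in NT. The defining markers Rbfox3 and Cldn5 were under the filter of 10. The part of these shifts in the results for the PARP members was not tested.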

How the data were processed

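RNA-seq of 3 KE and 3 NT cultures was analysed. The authors trimmed reads with Trim Galore, aligned them with STAR and counted genes with Salmon. The signal deposited by the authors is each gene's count divided by the DESeq2 size factor, and it holds fractions, so no count test was run. The study's methods name GRCm39, whereas the submitters' processing notes list GRCh38, and all 55357 identifiers are mouse. The methods mention an adjustment for batches without naming them, so none was modelled. Approximate depth lay between 24500000 reads (KE replicate 2) and 34100000 reads. Whole reads were not recovered (only 69.6% to 73.8% of the low values fell within 0.1 of a multiple of 1 read), so values carry no counting interval and precision rests on the spread between cultures.

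Genes whose mean was 10 or more were tested with limma 3.58.1 (R 4.3.3) on log2(normalized count + 1), with a variance trend and group as the only factor. Tests were two-sided. Confidence intervals are 95% intervals from this fit. Ratios were compared by exact permutation (SciPy 1.17.1). Coordinates and lengths are from Gencode vM39 on GRCm39, which holds 54749 of the identifiers. The fit was also run on simulated data with independent noise and far fewer changed genes than were called here. That run checks the code and does not measure the reliability of these calls.

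The members and gene lists were chosen with earlier results of these data known. Named are all members, Braf, the 3 genes nearest to Parp9 and to Parp14, and list genes by highest mean expression. Other called list genes, list genes with no call and the genes that neighbour or overlap members were named after their values were seen. Alternatives were other pseudocounts, filters and scalings, no trend, a replicate block and leaving out each culture. Values of some single genes of the lists are left out.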

Additional observations from a re-analysis of the deposited data

How the results depend on the processing

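Over 14 alternatives for each member, 140 of 140 member comparisons had the same direction and call as the main one. Under every one, 8 members were upregulated and 2 downregulated. Other pseudocounts and filters, 75th percentile scaling, no trend and the replicate block could barely move a log2FC at these levels (Parp9, 1.546 to 1.548). Agreement in direction under these settings was therefore nearly fixed in advance. Leaving out each culture in turn moved the log2FC of Parp14 between 1.25 and 1.54, of Parp9 between 1.42 and 1.66, of Parp10 between 1.99 and 2.25, of Parp8 between 0.62 and 0.70, of Parp1 between -0.83 and -0.78 and of Parp2 between -0.45 and -0.33. The highest adjusted p of any member under any alternative was 0.0145, for Parp2 (limma with Benjamini-Hochberg adjustment). The number of DEGs over all tested genes ran from 6776 to 8046, and from 6776 to 7199 when 1 culture was left out. The difference in the Dtx3l to Parp9 ratio ran from 0.00 to 0.11 (exact permutation p from 0.4 to 1), and that in the Parp9 to Parp14 ratio from 0.05 to 0.17 (p from 0.2 to 0.6). Scaling moved the median log2FC of all tested genes from 0.002 to 0.029 (quantile normalization) or 0.001 (75th percentile). In the short lists, Tnks2, the 1 downregulated gene among the other PARPs, lost its call in 5 of the alternatives, all given in the report. Upregulated genes of NAD synthesis numbered 5 with a mean of at least 50, with the replicate block, without KE replicate 3 or without NT replicate 1, and 7 under quantile normalization. The cause was not tested.

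Replicate numbers 1 to 3 occur in both groups, but the labels do not say that a number marks a shared preparation. Deviations from the group means correlated across genes at 0.0589, 0.0664 and 0.0651 between cultures of the same number and at -0.0499 to -0.0105 between others. Every culture thus correlated best with its own number, although all values were under 0.1. Low values do not show that the cultures were unpaired. Whether a number marks a shared preparation is not known, and the main fit has no pairing. Fitted with a replicate block, the table gave 8046 DEGs, 8 members were upregulated and 2 downregulated, and the block changed the call of no member. For Parp2 the adjusted p was 0.0041 with the block (limma).

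The least deeply sequenced culture, KE replicate 2, limits low genes most, and the members had normalized counts of 570 or more in every culture.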

Other observations

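The 3 KE values of Parp9 lay very close together. Their coefficient of variation was 0.0175%, where the median over the 6374 genes with a KE mean of at least 1000 was 5.32%, and of these genes 1, Parp9 itself, had a value this low. For scale, the square root of the KE mean, which is the spread that counting alone would give if 1 normalized count were 1 read, was 87.3, against an SD of 1.33. The gene was singled out after its values were seen, and no test was made.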
